A study of Mus musculus and Homo sapiens with 24 samples.

Results

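The genes described here code for the respiratory chain and the ATP synthase, the machinery that makes most of the ATP of a resting or contracting muscle fibre. They were chosen by name alone: complex I (the NDUF genes), complex II (SDHA to SDHD), complex III (the UQCR genes), complex IV (the COX4 to COX8 genes), ATP synthase or complex V (the ATP5 genes), and the protein-coding genes of the mitochondrial genome. COX6A2, the striated muscle form of a complex IV subunit, and genes named as pseudogenes were left out. The rule found 99 of 56748 gene rows in the mouse line C2C12, of which 86 are nuclear and 13 mitochondrial, and 105 of 58735 in the human line LHCN-M2, of which 92 are nuclear and 13 mitochondrial. Polyadenylated RNA was sequenced from both lines while they differentiated, with 4 libraries in each of 6 groups. The days are 0, 1 and 6 for C2C12 and 0, 1 and 12 for LHCN-M2. C2C12 is an established mouse myoblast line and LHCN-M2 an immortalised human myoblast line, and both fuse into multinucleated myotubes when growth factors are withdrawn. Every sample is labelled a skeletal myoblast of genotype control, and the labels name no treatment, so each day was compared only with the other days of its own line, and the change over days was then compared between the lines.

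The chain is the product of a pair of genomes. Nuclear genes, transcribed in the nucleus and translated in the cytosol, supply all of complex II and most subunits of the other complexes. The mitochondrial genome, transcribed inside the organelle by its own polymerase from long polycistronic RNAs that are then cut apart, supplies core subunits of complexes I, III, IV and V. Complexes I and II feed electrons into ubiquinone, complex III passes them to cytochrome c, complex IV gives them to oxygen, and complex V uses the proton gradient to make ATP. Myoblasts rely largely on glycolysis, and mature muscle fibres are rich in mitochondria.

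By complex, the nuclear genes in C2C12 numbered 39 for complex I, 4 for complex II, 8 for complex III, 17 for complex IV and 18 for complex V, and in LHCN-M2 42, 4, 9, 16 and 21. The mitochondrial genes were 7 of complex I (MT-ND1 to MT-ND6 with MT-ND4L), 1 of complex III (MT-CYB), 3 of complex IV (MT-CO1 to MT-CO3) and 2 of complex V (MT-ATP6 and MT-ATP8). NDUFA4 is counted with complex I by its name, although its protein is now placed in complex IV. In LHCN-M2, 8 of the nuclear entries were classed as other than subunits. They were 2 antisense transcripts, 1 divergent transcript, 2 readthrough transcripts, 2 subunit-like copies and the coupling factor gene ATP5S. ATP5IF1, the inhibitory factor of ATP synthase, was classed with the subunits. In C2C12, 1 is a subunit-like copy. The filter on low counts kept 80 of 86 nuclear and all 13 mitochondrial genes in C2C12, and 85 of 92 and all 13 in LHCN-M2. In C2C12, Ndufb11b, Cox8c and a second row named Atp5o held 0 counts in 12 libraries, which allows up to 0.00646 CPM (3 counts of the summed total), and Cox4i2, Cox6b2 and Cox7b2 were too low to test. In LHCN-M2, COX4I2, COX7B2 and NDUFC2-KCTD14 held 0 counts, which allows up to 0.00609 CPM, and COX6B2, COX8C, ATP5MGL and ATP5MF-PTCD1 were too low to test. Such limits cover counting error only.

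The libraries of C2C12 held 32795699 to 43827517 counts each, and those of LHCN-M2 33030258 to 48546621. Whether the 4 libraries of a group came from different dishes is not in the labels, so a p-value here sets a change against a spread that may be only technical. The summed level of 10 myoblast and myotube markers was 266.5 to 284 CPM at day 0 and 2486 to 2656 CPM at day 6 in C2C12, and 723 to 1019.5 CPM at day 0 and 5497 to 5823 CPM at day 12 in LHCN-M2, where PAX7 was at 0 on every day and MYOG and MYMK at day 0. Markers of other cell types also moved with the days. In C2C12, from day 0 to day 6, 8 fibroblast and matrix markers went from 14393 to 16820 CPM to 10662 to 11138 CPM (Thy1 and Tcf21 at 0 on both days), 6 smooth muscle markers from 1683 to 1828 CPM to 1399.6 to 1599 CPM, 5 adipocyte markers from 125 to 144 CPM to 42.9 to 51.0 CPM and 5 neural markers from 51.7 to 59.0 CPM to 581 to 620.1 CPM. In LHCN-M2, from day 0 to day 12, the fibroblast and matrix markers went from 10504 to 10876 CPM to 24191 to 25199 CPM (TCF21 at 0 at day 12), the smooth muscle markers from 390.3 to 626.3 CPM to 847 to 925 CPM and the adipocyte markers from 4.80 to 9.31 CPM to 1.34 to 2.34 CPM, while the neural markers stayed between 9.34 and 13.8 CPM on all days. The 6 endothelial and immune markers stayed under 5 CPM in all libraries, and the part of these lists in the results was not tested. One library stood apart in these genes. Replicate 2 of LHCN-M2 day 0 was the highest of its group in 77 of 85 nuclear genes tested and the lowest in 10 of 13 mitochondrial genes. It was also the highest of its group in the summed myoblast and myotube markers (1019.5 CPM against 722.8 to 764.4 CPM in the other day 0 libraries), the smooth muscle markers (626.3 CPM against 390.3 to 469.3 CPM) and the adipocyte markers (9.31 CPM against 4.80 to 6.25 CPM), while its fibroblast markers were close to theirs. The part of these differences in the results was not tested, and the main LHCN-M2 results below are given with and without this library. To a lesser degree, replicate 1 of LHCN-M2 day 12 was the highest of its group in 75 of 85 nuclear genes, replicate 1 of C2C12 day 0 in 72 of 80 and replicate 2 of C2C12 day 6 in 62 of 80. Such ranks were not counted over all genes, so they are not shown to be particular to this set. Over all genes, 4262 of 18214 were higher and 4279 lower at day 1 of LHCN-M2. Without replicate 2 of day 0 these were 4990 and 4475 of 18782.

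In mouse, the counts of some mitochondrial genes are uncertain, since the nuclear genome holds near-identical copies of them. Matched against the GENCODE annotation of mm10, mt-Co2, mt-Co3, mt-Atp6, mt-Nd3 and mt-Nd4l are each copied over nearly their whole length in a pseudogene on chromosome 1, and mt-Nd4 (63.6% of its length) and mt-Co1 (31.3%) are copied in part. For the other 6 genes, mt-Nd1, mt-Nd2, mt-Nd5, mt-Nd6, mt-Cytb and mt-Atp8, no such copy is annotated. Only annotated transcripts were searched, so a copy outside the annotation would be missed. This matters for mt-Atp8, which lies between mt-Co2 and mt-Atp6, both copied on chromosome 1. Below, a gene with no copy is one with no annotated copy in mouse. No search for copies of the human genes was made, so the LHCN-M2 counts may hold the same uncertainty. The first bases of mt-Co2 and of its copy Gm28661 show the problem: a read from either gene has the same letters. In mt-Nd3 and its copy Gm28438 the first 61 bases differ by 1 base, T3C (counted from the first base of mt-Nd3; the copy has the second letter), which is in capitals.
mt-Co2: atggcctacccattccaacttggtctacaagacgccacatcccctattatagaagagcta
Gm28661: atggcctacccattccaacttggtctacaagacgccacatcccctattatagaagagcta
mt-Nd3: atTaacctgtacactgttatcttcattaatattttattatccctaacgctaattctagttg
Gm28438: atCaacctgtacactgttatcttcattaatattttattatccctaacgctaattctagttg

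Levels per length are given here by these classes. In RPKM, the 5 genes copied nearly whole averaged 68.8 RPKM (mt-Co2), 26.8 RPKM (mt-Co3), 40.5 RPKM (mt-Atp6), 7.62 RPKM (mt-Nd3) and 6.87 RPKM (mt-Nd4l) over the 12 C2C12 libraries. Their human counterparts averaged 6857, 5277, 3307, 1285 and 1391 RPKM over the 12 LHCN-M2 libraries. The 2 genes copied in part averaged 6799 RPKM (mt-Co1) and 1176 RPKM (mt-Nd4), against 8841 and 3442 RPKM in human. Among the genes with no copy, 5 averaged from 727 RPKM (mt-Nd6) to 3465 RPKM (mt-Cytb), where their human counterparts ran from 1212 to 2064 RPKM, but mt-Atp8 averaged 1.63 RPKM against 181 RPKM for MT-ATP8, below all 5 genes copied nearly whole. The levels thus did not divide wholly by annotated copy class, and a copy of mt-Atp8 outside the annotation was not looked for. The tables of the lines were made separately, so only the order of size is read. How reads with more than 1 match were counted is not given in the sources used here. The changes of the 5 genes copied nearly whole are therefore uncertain in C2C12, although the counts of called mitochondrial genes below include them. mt-Atp8 had 153 counts in all 12 libraries.

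The summed counts separated the genomes in both lines. In C2C12 the mitochondrial genes took 2.22, 2.24, 2.17 and 2.25% of all counts in the 4 libraries of day 0, 2.25, 2.63, 2.28 and 2.35% at day 1 and 2.06, 2.18, 2.02 and 2.198% at day 6. The nuclear genes took 1.08, 0.967, 0.954 and 0.960% at day 0, 0.869, 0.825, 0.853 and 0.850% at day 1 and 1.06, 1.14, 1.05 and 1.05% at day 6. The nuclear share was thus lowest at day 1, in all 4 libraries, and day 6 lay above day 1 but overlapped day 0. The ratio of mitochondrial to nuclear counts was 2.25 ± 0.131 at day 0, 2.80 ± 0.265 at day 1 and 1.96 ± 0.0817 at day 6 (mean ± SD, n = 4), with day 1 above both other days in every library. Over the 6 mitochondrial genes with no near-identical copy the ratio was 0.858 ± 0.0471, 1.34 ± 0.131 and 0.980 ± 0.0389, so day 1 was again highest, and all libraries of day 6 now lay above those of day 0. The direction between days 0 and 6 therefore rests on which mitochondrial genes are summed, and leaving out mt-Co1 alone also turned it. In bulk RNA, fewer cells with a high level and less RNA in each cell cannot be told apart.

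In LHCN-M2 the mitochondrial share was 3.45, 2.99, 3.76 and 3.39% at day 0, 3.70, 4.10, 3.78 and 3.57% at day 1 and 4.35, 4.14, 4.67 and 4.23% at day 12, and all 4 libraries of day 12 lay above all 8 earlier ones. The nuclear share was 0.592, 0.841, 0.561 and 0.563% at day 0, 0.562, 0.538, 0.518 and 0.545% at day 1 and 0.664, 0.564, 0.551 and 0.569% at day 12. Replicate 2 stood above the rest, and without that library day 0 was 0.572 ± 0.0172% (n = 3) and day 12 was 0.587 ± 0.0519%. The ratio was 5.53 ± 1.36 at day 0, 7.01 ± 0.534 at day 1 and 7.45 ± 0.795 at day 12, and 6.18 ± 0.456 at day 0 without replicate 2, where it was 3.56. The highest of the other day 0 libraries, 6.69, still overlapped the lowest at day 1 and at day 12. No p-value is given for these sums, since the genes were chosen by name as a group.

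**Figure D1:**
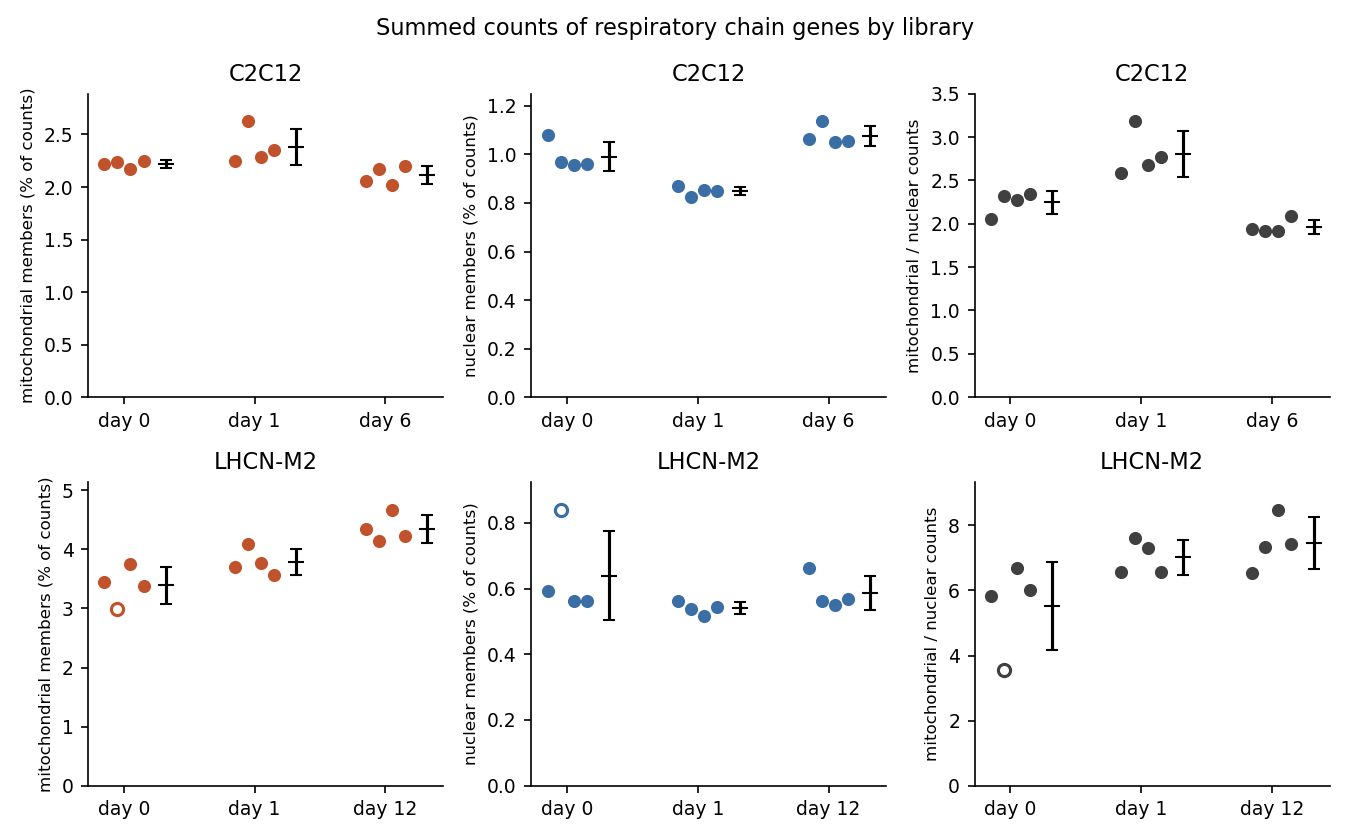
Each point is a library; rows show the mitochondrial share and the nuclear share of all counts (percent) and their ratio, by day, for C2C12 and LHCN-M2, with mean ± SD as bars and LHCN-M2 day 0 replicate 2 as an open point. The nuclear share of C2C12 is lowest at day 1 (0.849 ± 0.0182%), and the mitochondrial share of LHCN-M2 is highest at day 12 (4.35 ± 0.236%).

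In C2C12, nuclear genes of every complex were lower 1 day after the start than at day 0. Of 80 nuclear genes tested, 52 were lower and 3 higher by edgeR's quasi-likelihood test (adjusted p under 0.05), where 24.4% of all genes tested were lower and 25.9% higher. The median log2 change of the 80 was -0.27 (-0.01 over all genes tested), so most of the falls were small. The count of lower genes was 28 of 38 in complex I, 3 of 4 in complex II, 6 of 8 in complex III, 9 of 13 in complex IV and 6 of 17 in complex V, the complex with the smallest median change (-0.13, against -0.22 to -0.32 in the others). In 46 of the 80 genes every day 1 library lay under every day 0 library, which held for 22.5% of all genes tested, and in 1 every day 1 library lay above (23.1%).

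Uqcrq, a small subunit of complex III, fell at day 1 and was above its starting level at day 6. It measured 97.9, 86.4, 77.1 and 81.7 CPM at day 0, 59.1, 54.3, 53.0 and 56.3 at day 1 and 130.5, 149, 122 and 123 at day 6. No library of 1 day overlapped another day, and the order was day 1, day 0, day 6. The log2 changes were -0.62 ± 0.07 (adjusted p = 5.9e-07) from day 0 to day 1 and 1.23 ± 0.07 (adjusted p = 8.8e-12) from day 1 to day 6 (± SE, edgeR). Ndufa12, an accessory subunit of complex I, had a deeper dip with more spread between libraries. It measured 34.3, 21.0, 25.8 and 42.3 CPM at day 0, 16.9, 13.8, 14.7 and 16.7 at day 1 and 59.3, 29.2, 46.8 and 42.9 at day 6. All day 1 libraries were below the other days, while days 0 and 6 overlapped. Its log2 change was -0.99 ± 0.19 (adjusted p = 0.00014) to day 1 and 0.53 ± 0.18 (adjusted p = 0.014) from day 0 to day 6. Uqcr10, another small subunit of complex III, fell from 51.5 ± 4.05 to 34.6 ± 2.92 CPM (-0.57 ± 0.07 on the log2 scale), and Ndufs7, a core iron-sulfur subunit of complex I, from 89.4 ± 5.08 to 62.8 ± 2.95 CPM (-0.51 ± 0.07).

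The 3 nuclear genes called higher at day 1 were Ndufb2, Atp5l and Cox8b, which is described with the tissue forms. The call of Cox8b rests on 11 counts at day 1 against 0 at day 0, 3.15-fold over a floor of 3 counts. Cox8b passed the filter through its day 6 counts, so its day 1 call is not read as a result. Ndufb2, an accessory subunit of complex I, measured 5.31, 5.76, 4.47 and 5.50 CPM at day 0, 12.6, 11.7, 11.2 and 10.3 at day 1 and 6.99, 8.12, 8.40 and 8.87 at day 6. It was the 1 nuclear gene whose day 1 libraries all lay above day 0, and its log2 change was 1.12 ± 0.12 (adjusted p = 1.6e-07). Atp5l, a membrane subunit of ATP synthase, rose by 0.24 ± 0.07 (adjusted p = 0.0092) with overlapping libraries. Without replicate 1 of day 0, 6 nuclear genes were higher in place of 3, and 40 were lower in place of 52. With any 1 library left out, 40 to 49 were lower.

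By day 6 more nuclear genes were above their day 0 level than below it. Against day 0, 45 of 80 were higher and 7 lower, where 33.1% of all genes tested were higher and 32.5% lower, and the median log2 change was 0.23 (-0.03 over all genes). Against day 1, 71 were higher and 4 lower (32.8% and 28.6% of all genes), with a median of 0.47. The comparisons with day 0 share the day 0 libraries, and those with day 1 share the day 1 libraries, so they are not independent counts. The mean was lowest at day 1 in 67 of the 80 genes and highest at day 6 in 57. The same counts were not made over all genes, so no background share is given for them. Each complex had more genes higher than lower: from day 0 to day 6, 19 genes of complex I were higher and 4 lower, 2 and 1 of complex II, 5 and 1 of complex III, 6 and 0 of complex IV (0 lower also at an unadjusted p under 0.05), and 13 and 1 of complex V. The count of lower genes was 11 without replicate 2 of day 6 and 3 without replicate 3 of day 6. The count of higher genes ranged from 38 (without replicate 2 of day 0) to 52 (without replicate 1 of day 0).

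Atp5b, the catalytic beta subunit of ATP synthase and the nuclear gene of the set with the most counts in C2C12, measured 1679.8, 1573, 1607 and 1579 CPM at day 0, 1315, 1288, 1362 and 1346 at day 1 and 1973, 2108, 1964 and 1973 at day 6. The 3 days did not overlap, with day 1 lowest and day 6 highest. The log2 change from day 0 to day 6 was 0.32 ± 0.04 (adjusted p = 1.1e-06). Ndufb7, an accessory subunit of complex I, did not pass the test at day 1 and was much higher at day 6. It measured 60.8, 51.3, 50.1 and 49.3 CPM at day 0, 53.8, 47.9, 51.0 and 47.5 at day 1 and 98.6, 114, 94.4 and 96.9 at day 6, so that every day 6 library lay above the 8 earlier ones and days 0 and 1 overlapped. Its log2 change from day 0 was 0.93 ± 0.07 (adjusted p = 5.5e-10). Ndufb1, also an accessory subunit of complex I, rose from 13.2 ± 2.02 to 29.0 ± 1.60 CPM (1.13 ± 0.11, adjusted p = 1.8e-08). In complex V the largest gain was that of Atp5mpl, a small subunit, from 46.1 ± 7.12 to 78.9 ± 4.81 CPM (0.77 ± 0.08, adjusted p = 5e-08).

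The 7 nuclear genes that were lower at day 6 went the other way. Uqcrc1, a core protein of complex III, measured 145, 128, 118 and 124 CPM at day 0, 109.7, 98.4, 104 and 112 at day 1 and 76.4, 79.5, 73.6 and 79.8 at day 6. It fell at each step with no overlap between days, and its log2 change over the whole course was -0.73 ± 0.06 (adjusted p = 2.3e-09). Its partner Uqcrc2 measured 127, 126, 119.6 and 122 CPM at day 0 and 131, 129.9, 121 and 131 at day 6, where the libraries overlapped (0.05 ± 0.05, adjusted p = 0.37). The genes of these 2 core proteins of 1 complex thus had unlike courses. The other lower genes at day 6 were Sdha, Ndufb8, Ndufa2, Ndufa13, Atp5d and the paralog Ndufa4l2.

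Complex II, which has no mitochondrial subunit, held both directions as well. Sdha, the flavoprotein that oxidises succinate, measured 309.6, 312, 319 and 299 CPM at day 0, 269, 268, 297 and 288 at day 1 and 249.5, 251, 266 and 268 at day 6 with a log2 change of -0.26 ± 0.05 (adjusted p = 0.0001) to day 6 and no overlap between days 0 and 6. Sdhb, the iron-sulfur subunit, measured 94.3, 82.8, 77.5 and 82.2 CPM at day 0, 65.9, 62.5, 58.8 and 65.9 at day 1 and 98.4, 109.6, 99.8 and 104 at day 6, with a dip at day 1 and a gain of 0.29 ± 0.06 (adjusted p = 0.00044) at day 6. Sdhd, a membrane anchor, measured 107, 90.0, 97.0 and 93.6 CPM at day 0, 92.9, 88.9, 89.8 and 86.8 at day 1 and 133, 146, 139 and 133 at day 6, and all day 6 libraries stood above the rest (0.51 ± 0.06, adjusted p = 1.1e-07). Sdhc, the other anchor, went from 107 ± 8.11 to 87.3 ± 4.97 and 97.3 ± 7.93 CPM and did not pass the test between days 0 and 6 (-0.14 ± 0.07, adjusted p = 0.072).

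**Figure D2:**
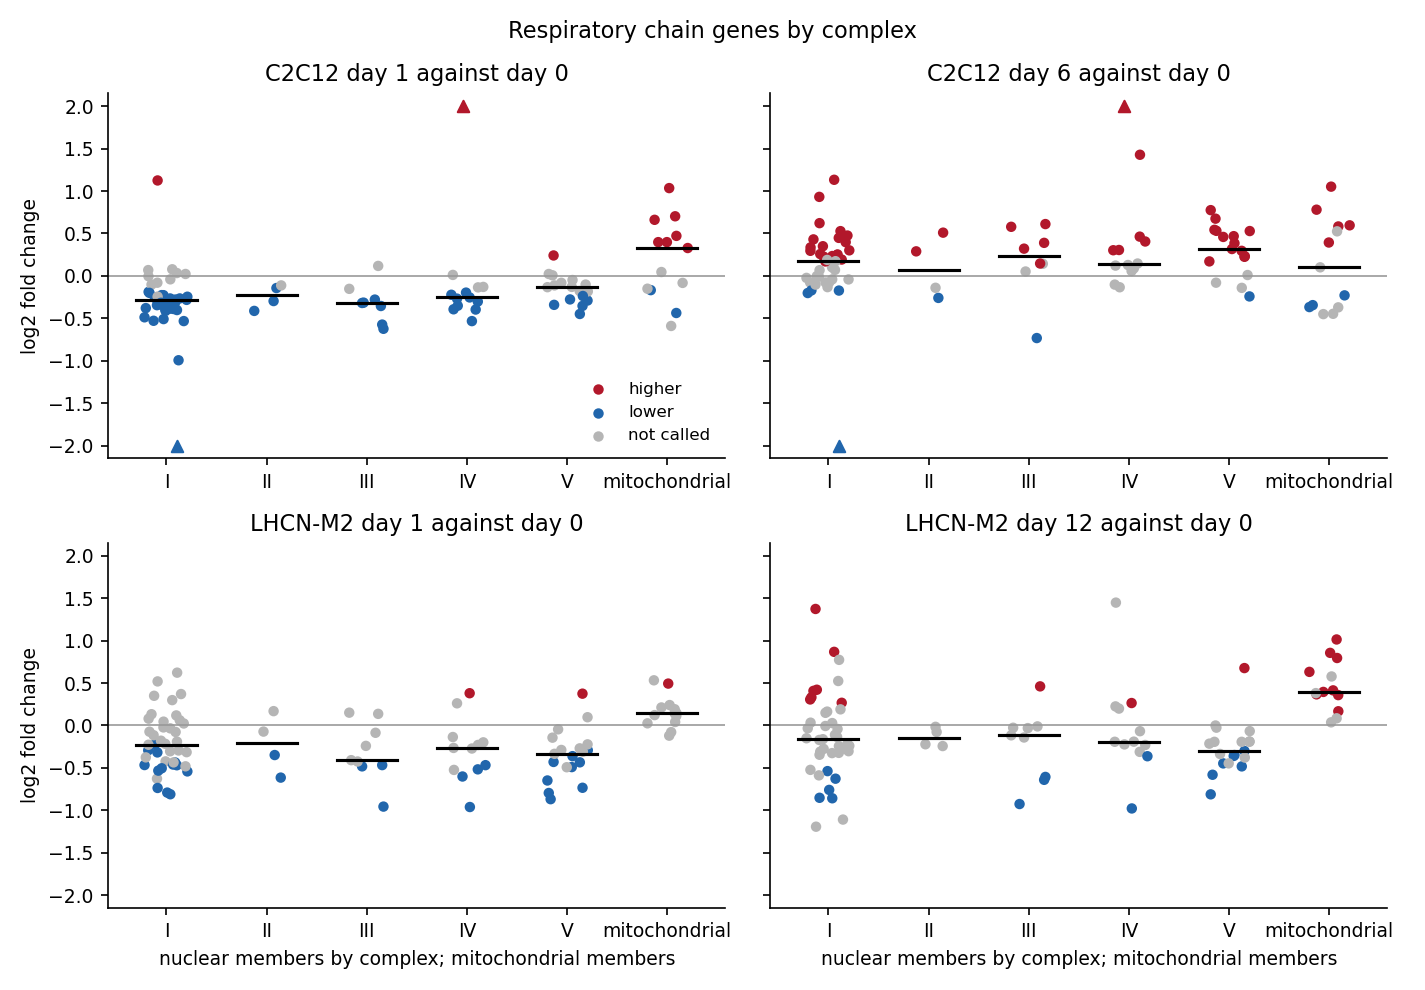
Each point is a nuclear gene (by complex I to V) or a mitochondrial gene, placed by its log2 change on the vertical axis at day 1 against day 0 and at the last day against day 0, for each line; red is higher, blue lower and grey not past an adjusted p of 0.05, black lines are medians, and triangles mark values beyond the axis. In C2C12 the nuclear medians lie below 0 at day 1 and above 0 at day 6, while those of LHCN-M2 lie below 0 in both panels.

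The mitochondrial genes of C2C12 did not follow the nuclear ones at day 1. At day 1, when 52 nuclear genes were lower, 7 of 13 mitochondrial genes were higher and 2 lower, with a median log2 change of 0.33 (25.9% of all genes tested were higher and 24.4% lower). At day 6 against day 0, 5 were higher and 3 lower (median 0.10), counts close to the shares of all genes (33.1% and 32.5%). Of the 6 genes with no near-identical copy, all but mt-Atp8, namely mt-Nd1, mt-Nd2, mt-Nd5, mt-Nd6 and mt-Cytb, were higher at day 1, with no overlap with day 0 (23.1% of all tested genes were higher without overlap). mt-Nd6, the 1 protein gene on the other strand of the mitochondrial genome, had the largest change of these. It measured 284, 229.6, 287 and 252 CPM at day 0, 366, 467, 422 and 409.5 at day 1 and 409, 464, 463 and 473 at day 6. Every library of days 1 and 6 lay above every day 0 library, and the log2 changes from day 0 were 0.66 ± 0.08 (adjusted p = 3.2e-07) and 0.78 ± 0.08 (adjusted p = 1.1e-08). The strand setting of the counting is not given, so for mt-Nd6 and MT-ND6 reads of the gene and of the opposite strand at the same place cannot be told apart. RNA was also captured by its poly(A) tail. For all mitochondrial RNAs of both lines, ribosomal RNA included, a change in tails and a change in level cannot be told apart.

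mt-Nd2 rose at each step, from 1106, 1033, 1089 and 1083 CPM at day 0 to 1223, 1494, 1312 and 1383 at day 1 and 1555, 1658, 1583 and 1719 at day 6 (0.60 ± 0.05, adjusted p = 4.5e-09 over the course). mt-Nd1 and mt-Nd5 rose at day 1 and stayed up, at 0.39 ± 0.06 and 0.58 ± 0.05 at day 6 against day 0. mt-Cytb, the heme-carrying core of complex III, was high at day 1 alone. It measured 3540.3, 3576, 3469 and 3447 CPM at day 0, 4312, 5088, 4525 and 4563 at day 1 and 3626, 3951, 3559 and 3911 at day 6, so that day 1 stood above both other days and days 0 and 6 overlapped. The log2 change was 0.40 ± 0.05 (adjusted p = 9.4e-07) to day 1 and -0.30 ± 0.05 (adjusted p = 2.1e-05) from day 1 to day 6. mt-Co1, the catalytic subunit of complex IV and the gene of the set with the most counts, fell. It measured 11888, 11904, 11270.0 and 12016 CPM at day 0, 10180.4, 11598, 9872 and 10249.9 at day 1 and 9089, 9688, 8595 and 9697 at day 6, and all day 6 libraries lay below day 0 (-0.34 ± 0.05, adjusted p = 3.1e-06). mt-Nd4 was also lower at day 6 (-0.23 ± 0.05, adjusted p = 0.00064), and it and mt-Co1 are the 2 genes copied in part. Per complex, mitochondrial counts of complex I took 0.670 ± 0.00734% of all counts at day 0 and 0.833 ± 0.0285% at day 6, while those of complex IV went from 1.19 ± 0.0381% to 0.911 ± 0.0481%, and neither overlapped between these days. Of the genes copied nearly whole, mt-Co3 and mt-Nd3 rose and mt-Co2 fell at day 1, each with overlapping libraries, and mt-Atp6 fell at day 6, also with overlap. The 2 mitochondrial calls of lower at day 1, mt-Co1 and mt-Co2, fell to 1 or 0 without replicate 1, 2, 3 or 4 of day 0, or replicate 1, 3 or 4 of day 1.

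In LHCN-M2 the balance of lower and higher nuclear genes at day 1 depended on 1 library. With all 12 libraries, 31 of 85 nuclear genes were lower at day 1 and 2 higher, where 23.5% of all genes tested were lower and 23.4% higher, and the median log2 change was -0.29 (0.03 over all genes). Scaled by library totals without TMM, the split was 23 lower and 5 higher. Without replicate 2 of day 0, 24 were lower and 12 higher (23.8% and 26.6% of all genes), and the median was -0.06. Of the 31 lower genes, 24 kept their call without it, and none changed sign with a call. The count of lower genes was 18 without replicate 3 of day 1. By complex, 13 of 41 genes of complex I were lower with all libraries, 2 of 4 of complex II, 3 of 9 of complex III, 4 of 12 of complex IV and 9 of 19 of complex V. Without replicate 2 the counts lower and higher were 10 and 4, 2 and 1, 2 and 2, 4 and 3, and 6 and 2. Read against the share of all genes, the count of lower genes without replicate 2 was close to the background.

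COX8A (chromosome 11, 63974607 to 63976543 on GRCh38, the coordinates of the whole gene in the deposited table), the ubiquitous form of the smallest complex IV subunit, measured 59.9, 82.6, 54.6 and 50.4 CPM at day 0, 35.2, 30.4, 29.1 and 32.4 at day 1 and 35.5, 28.5, 29.8 and 31.7 at day 12. All 8 later libraries lay below all day 0 libraries, with or without replicate 2, and days 1 and 12 overlapped. The log2 changes were -0.96 ± 0.14 (adjusted p = 3.1e-05) and -0.98 ± 0.14 (adjusted p = 2e-05) at days 1 and 12, and -0.80 (adjusted p = 1.3e-07) at day 12 without replicate 2. NDUFA12 (chromosome 12, 94897055 to 95003770) was also lower on both later days. It measured 55.0, 59.8, 50.0 and 52.9 CPM at day 0, 33.3, 32.8, 30.3 and 34.1 at day 1 and 34.5, 28.4, 27.4 and 30.1 at day 12, again with no overlap between day 0 and later days. The change at day 12 was -0.85 ± 0.09 (adjusted p = 1.2e-06), and -0.80 (adjusted p = 4.5e-08) without replicate 2. UQCRC1 (chromosome 3, 48599002 to 48610976) measured 161, 253, 156 and 152 CPM at day 0, 96.7, 89.9, 90.1 and 95.4 at day 1 and 141, 109, 115 and 109.6 at day 12. Day 1 was lowest and day 12 lay between, with no overlap. The log2 changes from day 0 were -0.96 ± 0.14 (adjusted p = 5.5e-05) and -0.61 ± 0.14 (adjusted p = 0.0021), and at day 12 without replicate 2 -0.39 (adjusted p = 0.00015). ATP5F1B (chromosome 12, 56638175 to 56646068), the human form of Atp5b, measured 686, 859, 659 and 679 CPM at day 0, 446, 431, 417 and 438 at day 1 and 617, 568, 561 and 593 at day 12, lowest at day 1 and still below day 0 at day 12 (-0.30 ± 0.08, adjusted p = 0.0057; without replicate 2, -0.20, adjusted p = 0.0016).

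At day 12 against day 0, 17 nuclear genes were lower and 10 higher with all libraries, where 27.5% of all genes tested were lower and 27.1% higher, and without replicate 2 12 were lower and 19 higher (27.6% and 29.1%). The median moved from -0.19 to 0.06, so the sign of the median turned with the library. The count of lower genes was 26 without replicate 3 of day 0 and 11 without replicate 2 or replicate 3 of day 12. The 12 genes lower in both fits were ATP5F1B, ATP5IF1, ATP5MC1, ATP5MC3, ATP5PB, COX8A, NDUFA12, NDUFS6, NDUFS8, UQCRC1, UQCRH and UQCRHL. Genes higher in both included ATP5S, COX7A2L, NDUFA4, NDUFA4L2, NDUFA5, NDUFB5, NDUFS1 and UQCRC2. The change of UQCRQ turned sign with the library: it was -0.03 ± 0.18 (adjusted p = 0.9) with all libraries and 0.26 (adjusted p = 0.01) without it, and the gene measured 64.2, 119.8, 66.1 and 60.9 CPM at day 0 and 87.9, 71.8, 72.4 and 72.3 at day 12. Complex V had 7 lower genes and 1 higher with all libraries and 5 and 1 without replicate 2, and complex I had 5 and 7, then 3 and 11.

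NDUFS1 (chromosome 2, 206114817 to 206159603), the largest iron-sulfur subunit of complex I, rose. It measured 129.7, 102, 129 and 130.0 CPM at day 0, 95.7, 112, 103 and 108 at day 1 and 164, 165, 166 and 161 at day 12. Every day 12 library lay above the 8 earlier ones, and days 0 and 1 overlapped through replicate 2 of day 0, which was here the lowest. The log2 change from day 0 was 0.42 ± 0.09 (adjusted p = 0.00066), and 0.35 (adjusted p = 4.6e-05) without that library. UQCRC2 (chromosome 16, 21952660 to 21983660) measured 119, 130.2, 118 and 114 CPM at day 0, 133, 132, 130.4 and 133 at day 1 and 169, 167, 159 and 167 at day 12, so that each day lay above the one before. Its log2 change was 0.46 ± 0.06 (adjusted p = 1.8e-05), and 0.51 (adjusted p = 6.8e-08) without replicate 2. As in C2C12, UQCRC1 was lower and UQCRC2 was not, although the 2 proteins form 1 core of complex III. From day 1 to day 12, 14 of 85 nuclear genes were higher and 0 lower by edgeR (20.9% and 18.8% of all genes tested). At an unadjusted p under 0.05 edgeR had 5 lower genes, and DESeq2 called 2 after adjustment. Scaled by library totals without TMM, the split was 14 higher and 2 lower. Without replicate 2 of day 0, which also sets the spread of the fit, 31 were higher and 5 lower (24.9% and 23.7%). The count of higher genes was 7 without replicate 1 of day 12, and 9 without replicate 2 or replicate 4 of day 1.

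Complex II in LHCN-M2 was lower at day 1 in its catalytic subunits. SDHB (chromosome 1, 17018722 to 17054170) measured 55.7, 85.2, 60.5 and 59.1 CPM at day 0, 43.0, 41.3, 44.3 and 41.5 at day 1 and 62.4, 51.1, 56.2 and 50.4 at day 12, lowest at day 1 with no overlap with day 0 (-0.61 ± 0.12, adjusted p = 0.00063; without replicate 2, -0.44, adjusted p = 5e-05), and day 12 overlapped day 0. SDHA went from 119.8 ± 17.8 to 94.1 ± 7.59 and 114 ± 6.76 CPM, lower at day 1 (-0.35 ± 0.10, adjusted p = 0.0095; without replicate 2, -0.23, adjusted p = 0.012), with overlap. SDHC was 114 ± 5.24, 128 ± 10.5 and 113 ± 2.14 CPM and SDHD 38.8 ± 5.35, 36.9 ± 3.13 and 33.3 ± 3.21 CPM, and neither anchor passed the test at day 12 against day 0 (-0.02 ± 0.07, adjusted p = 0.87 and -0.22 ± 0.11, adjusted p = 0.095).

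**Figure D3:**
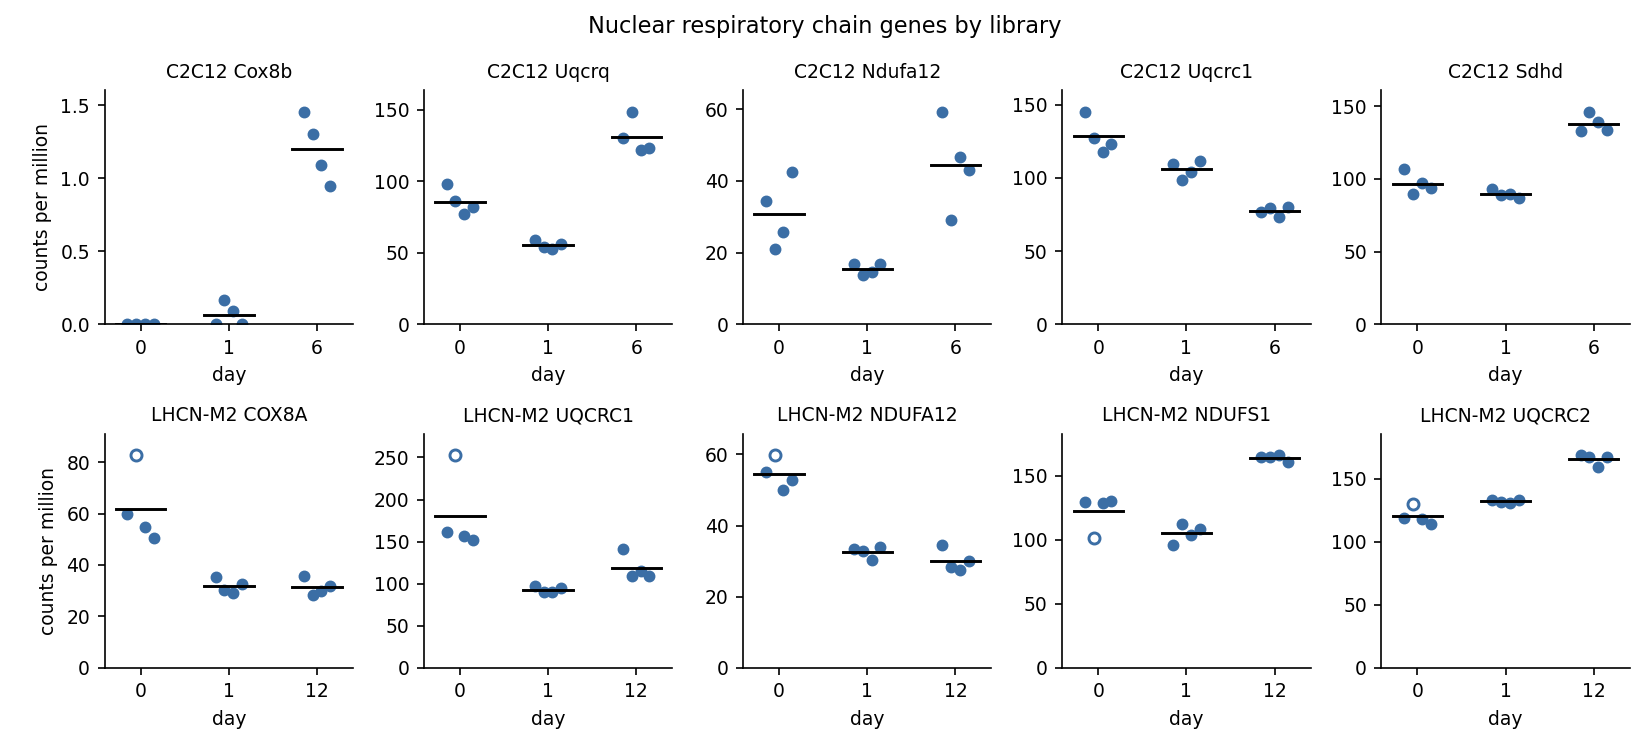
CPM (vertical axis) by day for 5 genes of C2C12 (Cox8b, Uqcrq, Ndufa12, Uqcrc1, Sdhd) and 5 of LHCN-M2 (COX8A, UQCRC1, NDUFA12, NDUFS1, UQCRC2), with each library as a point and the mean as a line; LHCN-M2 day 0 replicate 2 is open. Ndufa12 of C2C12 dips at day 1 and returns, while NDUFA12 of LHCN-M2 falls at day 1 and stays at 30.1 CPM at day 12.

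The mitochondrial genes of LHCN-M2 kept their direction at day 12 without that library. At day 12 against day 0, 9 of 13 were higher and 0 lower by edgeR (0 also at an unadjusted p under 0.05 and by DESeq2), with a median log2 change of 0.40, and the same 9 were higher without replicate 2, with a median of 0.28. For comparison, 27.1% and 29.1% of all genes tested were higher in these fits. At day 1 the 1 higher gene was MT-ND3 and 0 were lower by edgeR (0 also at an unadjusted p under 0.05 and by DESeq2), and without replicate 2 4 were higher and 1, MT-ND2, was lower. MT-ND6 (the mitochondrial genome, 14149 to 14673) measured 546, 461, 592 and 590.2 CPM at day 0, 583, 629, 615 and 591 at day 1 and 1214, 1039, 1098 and 1067 at day 12. Its day 12 libraries all lay above the earlier 8, and days 0 and 1 overlapped. The log2 change was 1.01 ± 0.08 (adjusted p = 6.9e-08), and 0.95 (adjusted p = 1.5e-11) without replicate 2. MT-ND5, its neighbour on the other strand, measured 2015, 1047, 2206 and 2192 CPM at day 0, 1730.1, 2077, 1996 and 1871 at day 1 and 2614, 3322, 3583 and 3428 at day 12, again with day 12 on top (0.80 ± 0.18, adjusted p = 0.0016; without replicate 2, 0.61, adjusted p = 3e-06). MT-CYB measured 2189.7, 1385, 2298 and 2051 CPM at day 0, 1929, 2159, 2066 and 1909 at day 1 and 3157, 2829, 3324 and 2966 at day 12, with no call at day 1 (0.03 ± 0.12, adjusted p = 0.89) and 0.63 ± 0.12 (adjusted p = 0.00044) at day 12 (without replicate 2, 0.50, adjusted p = 2.8e-07).

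MT-ND3 was the 1 mitochondrial gene that rose at both steps. It measured 319.9, 299, 333 and 314 CPM at day 0, 411, 485, 457 and 429 at day 1 and 633, 531, 565 and 562 at day 12, with no overlap between days, and the change over the course was 0.86 ± 0.08 (adjusted p = 1.4e-07), or 0.84 (adjusted p = 8.2e-10) without replicate 2. Smaller gains at day 12 were those of MT-CO3 (0.36 ± 0.07), MT-ATP6 (0.40 ± 0.10), MT-ND2 (0.41 ± 0.13), MT-ND4 (0.37 ± 0.13) and MT-CO1 (0.17 ± 0.07). MT-CO1 measured 11855, 13386, 13386 and 12013 CPM at day 0, 13561, 15105, 14295 and 13122 at day 1 and 13772, 13588, 15534 and 13975 at day 12, so that all day 12 libraries lay just above day 0 and day 1 overlapped both. The 4 genes that did not pass the test at day 12 were MT-CO2 (0.04 ± 0.08, adjusted p = 0.72), MT-ND1 (0.08 ± 0.11, adjusted p = 0.55), MT-ND4L (0.58 ± 0.30, adjusted p = 0.12) and MT-ATP8 (0.38 ± 0.35, adjusted p = 0.37). MT-ND4L and MT-ATP8 overlap the genes next to them, MT-ND4 and MT-ATP6, so that counting may split their reads. By complex, mitochondrial counts of complex I rose from 0.950 ± 0.229% to 1.38 ± 0.0816% of all counts and those of complex III from 0.194 ± 0.0438% to 0.308 ± 0.0213%, while complex IV went from 2.06 ± 0.117% to 2.39 ± 0.145%. Without replicate 2, complex I stood at 1.06 ± 0.0502% at day 0 (n = 3), so its rise was smaller. Complex III took 0.130% in replicate 2 and 0.202 to 0.228% in the other day 0 libraries. The genes with the largest gains, MT-ND6, MT-ND5, MT-CYB and MT-ND3, belong to complexes I and III. The mitochondrial 12S ribosomal RNA took another course. MT-RNR1 rose from 421 ± 38.3 CPM at day 0 to 667 ± 77.4 CPM at day 1 (log2 0.67 ± 0.10, adjusted p = 6.1e-05) and was back at 452 ± 52.0 CPM at day 12 (log2 0.10 ± 0.10, adjusted p = 0.4). It is a small part of the summed mitochondrial ribosomal RNA, which took 0.581, 0.756 and 0.633% of all counts at days 0, 1 and 12 (means). In that sum all day 1 libraries lay above day 0, and days 0 and 12 overlapped. Of 3 mitochondrial ribosomal and transfer RNA genes tested, 3 were higher at day 1. At day 12 against day 0, 1 of these, other than MT-RNR1, was higher and 0 were lower.

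**Figure D4:**
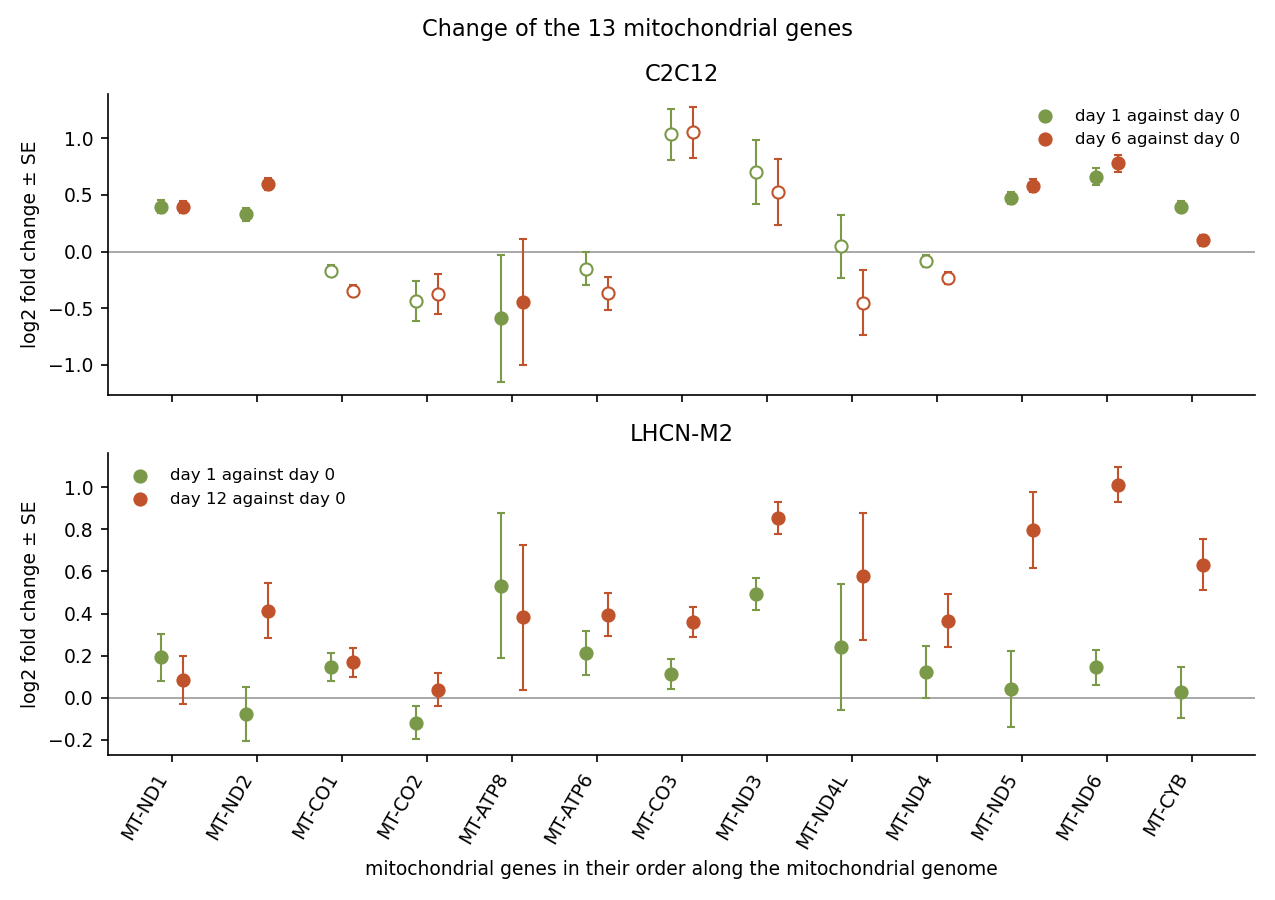
Log2 change ± SE (vertical axis) of the 13 mitochondrial genes in their order along the mitochondrial genome, at day 1 and at the last day against day 0, in C2C12 and LHCN-M2; open markers in C2C12 are genes with a near-identical nuclear copy of all or part of the gene. In LHCN-M2 the day 12 values of MT-ND3, MT-ND5, MT-ND6 and MT-CYB are the highest, and in C2C12 the filled markers lie above 0 at day 1 except mt-Atp8.

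The change over days was tested between the lines in 1 edgeR fit of all 24 libraries, on 10952 shared symbols, which include 65 nuclear and 12 mitochondrial genes of the set. The last days of the lines differ (day 6 against day 12), and genes that share a symbol need not be orthologs. Genes whose mouse symbol is an older name, such as Atp5b for ATP5F1B and mt-Cytb for MT-CYB, were paired in a second fit of 10967 symbols, and the differences of those genes are from it. In this fit, a difference is the log2 change of LHCN-M2 minus that of C2C12. It came out 0.074, 0.142 and 0.068 above the difference of the separate fits, for the first day, the last day against day 0 and the last day against day 1. From day 0 to day 1, 10 nuclear genes had a higher change in LHCN-M2 and 4 a lower one, both below the share of all genes (29.1% and 30.3%). Without replicate 2 of LHCN-M2 day 0 these were 30 and 3 of 65, where 32.9% and 32.2% of all 11004 genes tested in that fit were called. From day 0 to the last day, 8 were higher and 21 lower in LHCN-M2 (36.0% and 34.6% of all genes), and 6 of 12 mitochondrial genes were higher and 0 lower by edgeR (0 also at an unadjusted p under 0.05). Of these 6, MT-CO2, MT-ATP6 and MT-ND4L are copied nearly whole in mouse and MT-CO1 and MT-ND4 in part, and MT-ND6 has no copy. Without that library the nuclear counts were 16 and 17 and the mitochondrial 6 and 1, where 38.3% and 34.8% of all genes were called. From day 1 to the last day, which does not use day 0, 5 nuclear genes were higher and 24 lower in LHCN-M2 (30.1% and 26.0% of all genes), and 5 mitochondrial genes were higher and 0 lower by edgeR (0 also at an unadjusted p under 0.05). These 5 were MT-ND5 and MT-ND6, with no copy in mouse, MT-CO1 and MT-ND4, copied in part, and MT-ND3, copied nearly whole. Here, leaving out the day 0 library gave 6 and 33, and 8 and 0, where 33.5% and 30.3% of all genes were called. After day 1, most called differences of nuclear genes thus lay on the side of C2C12 and those of mitochondrial genes on the side of LHCN-M2. With older mouse names matched as well, the count from day 1 to the last day was 5 and 27 of 79 nuclear genes and 6 and 0 of 13 mitochondrial genes.

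NDUFA12 had the largest difference of a well-counted nuclear gene from day 1 to the last day, -1.57 ± 0.24 (adjusted p = 6.7e-06). It was lower at day 1 in both lines and above that level again at day 6 in C2C12, and the difference over the whole course was -1.24 ± 0.24 (adjusted p = 7.1e-05). UQCRQ, with the dip and rise in C2C12 given above, differed by -0.96 ± 0.20 (adjusted p = 0.00033). NDUFB7 rose in C2C12 and measured 48.7, 131, 47.3 and 49.5 CPM at day 0 and 53.0, 40.7, 44.7 and 45.7 at day 12 in LHCN-M2, a difference of -1.37 ± 0.29 (adjusted p = 0.00021), or -0.86 without replicate 2 of day 0. COX8A differed by -0.92 ± 0.18 (adjusted p = 6.5e-05), and its mouse form overlapped between days 0 and 6 (0.09 ± 0.10, adjusted p = 0.43). NDUFB2, which rose in C2C12, differed on the first day by -1.52 ± 0.23 (adjusted p = 4.1e-06) and measured 65.7, 110.2, 52.8 and 60.6 CPM at day 0 and 51.9, 46.4, 52.6 and 58.1 at day 1 in LHCN-M2. UQCRC2 rose more in LHCN-M2 (0.55 ± 0.07, adjusted p = 9.2e-08), and UQCRC1, lower in both lines, did not differ past the threshold over the whole course (0.27 ± 0.16, adjusted p = 0.14). Replicate 2 of LHCN-M2 day 0 is part of this fit. Among the genes of this paragraph, only NDUFB7 is given without it, so the other differences may move with that library. NDUFV2, NDUFA7 and NDUFA13 also passed a test between the lines, but in LHCN-M2 they had under 2 CPM and overlap other genes in the deposited table, so their values rest on few counts.

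Of the 22 genes of the set called in both lines at the last day against day 0, 14 (63.6%) were called in opposite directions, where 54.4% of the 5329 shared symbols called in both lines were. The nuclear ones were ATP5F1B, ATP5PB, ATP5PD, ATP5MC1, ATP5MC3, UQCRH, NDUFB10, NDUFS6, NDUFS8, NDUFA12 (higher in C2C12 and lower in LHCN-M2) and NDUFA4L2 (lower in C2C12 and higher in LHCN-M2), and 3 were the mitochondrial MT-CO1, MT-ND4 and MT-ATP6, lower in C2C12 and higher in LHCN-M2. ATP5PD and NDUFB10 lost their LHCN-M2 call without replicate 2 of day 0. The mitochondrial 3 each have a nuclear copy of all or part of the gene in mouse. ATP5MC1, a gene for the c ring of ATP synthase, was 54.6, 85.5, 49.9 and 52.5 CPM at day 0 and 42.9, 40.9, 36.7 and 41.6 at day 12, and its mouse form Atp5g1 87.0, 66.2, 67.0 and 68.9 CPM at day 0 and 106, 112, 94.3 and 105 at day 6. Neither line overlapped between these days, and the difference between them was -0.94 ± 0.17 (adjusted p = 3.8e-05). NDUFS8, a core iron-sulfur subunit of complex I, was 55.9, 143, 57.4 and 55.7 CPM at day 0 and 50.0, 34.9, 45.0 and 42.1 at day 12, and Ndufs8 78.2, 72.2, 68.4 and 62.4 CPM and 80.1, 94.6, 77.1 and 81.9 at days 0 and 6, with an overlap in C2C12 (-0.96 ± 0.28, adjusted p = 0.004 between the lines). The differences of ATP5MC1 and NDUFS8 include replicate 2 of LHCN-M2 day 0, at 85.5 and 143 CPM. Their size without that library is not given here and may be smaller. MT-CYB, which has no near-identical copy in mouse, differed by 0.70 ± 0.15 (adjusted p = 0.00017) at the last day and by 0.97 ± 0.15 (adjusted p = 5.2e-06) from day 1 on. MT-ND6 rose earlier in C2C12 (difference on the first day -0.44 ± 0.12, adjusted p = 0.0029) and by more in LHCN-M2 at the end (0.37 ± 0.12, adjusted p = 0.0084).

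**Figure D5:**
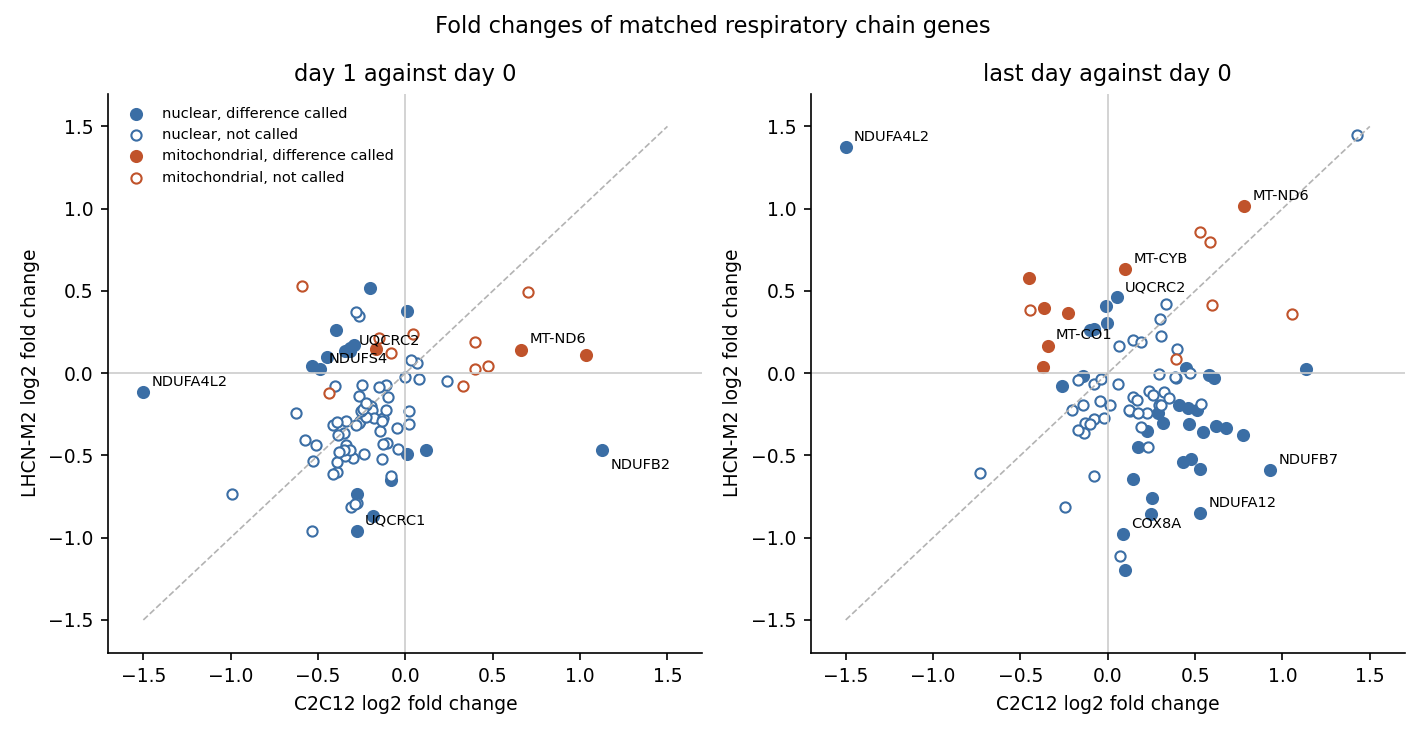
Log2 change in LHCN-M2 (vertical axis) against that in C2C12 (horizontal axis) for genes matched by symbol, at day 1 and at the last day against day 0; nuclear and mitochondrial genes have separate colours, filled points passed the test of the difference, the dashed line marks equal change, and values are clipped at 1.5. At the last day most filled nuclear points lie below the line and all filled mitochondrial points above it.

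Several subunits have tissue forms, and of these the striated muscle forms described here stayed low. Cox8b, the muscle form of subunit 8 in mouse, had 0 counts in the 4 libraries of day 0, 11 counts at day 1 and 182 at day 6. Against a floor of 3 counts over the day 0 group, that is at least 55.5-fold higher at day 6, at 1.46, 1.30, 1.09 and 0.946 CPM, and it passed the filter through its day 6 counts. Cox8a, the ubiquitous form, was at 175 ± 16.4 CPM on the same day, and per length the 2 forms stood at 3.33 ± 0.626 and 283 ± 26.4 RPKM. Cox7a1, the muscle form of subunit 7a, measured 1.11, 0.452, 0.240 and 1.14 CPM at day 0 and 2.30, 2.76, 1.23 and 1.75 at day 6, a rise of 1.43 ± 0.43 (adjusted p = 0.0065) with no overlap. Per length it was below the ubiquitous Cox7a2, at 3.75 ± 1.24 against 115 ± 10.9 RPKM. In LHCN-M2, COX7A1 was at 0.325, 0.212, 0.336 and 0.211 CPM at day 0 and 0.983, 0.481, 0.710 and 0.788 at day 12, and it passed the test against day 1 (1.97 ± 0.67, adjusted p = 0.029) and not against day 0 (1.45 ± 0.66, adjusted p = 0.076). COX7A2L, a form of subunit 7a that joins complexes III and IV, rose in LHCN-M2 from 81.9 ± 9.99 to 107 ± 3.73 CPM at day 1 (0.38 ± 0.09, adjusted p = 0.0026), and in C2C12 its change was 0.01 ± 0.08 (adjusted p = 0.92). Ndufa4l2, a paralog of Ndufa4 known as a target of hypoxia signalling, fell in C2C12 from 0.606, 1.36, 0.480 and 1.86 CPM at day 0 to 0, 0.0480, 0.0460 and 0 at day 1, and in LHCN-M2 it went from 0.784, 2.39, 1.27 and 0.726 CPM at day 0 to 3.18, 3.67, 3.76 and 2.77 at day 12. Both are low levels, and the day 12 libraries of LHCN-M2 lay above all of day 0. Human NDUFA4L2 overlaps SHMT2 on the opposite strand, and the strand setting of the counting is not given. The 3 genes for the identical mature c subunit of ATP synthase moved differently in C2C12: at day 6 Atp5g1 and Atp5g3 were higher (0.53 ± 0.08 and 0.54 ± 0.06), and Atp5g2 did not pass (-0.14 ± 0.07, adjusted p = 0.08).

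The promoters of 4 mouse genes that differ in their course are shown, as the 250 bases before the start on GRCm38.p6 from RefSeq, read 5′ to 3′ on the gene's strand, with motif matches in capitals. Cox8b (chr7:140900447-140900696, minus strand) and Cox7a1 (chr7:30183921-30184170, plus strand) are the muscle forms that rose at day 6. Cox6a1 (chr5:115348959-115349208, minus strand) and Ndufs8 (chr19:3912775-3913024, minus strand) are broadly expressed genes that were lower at day 1.
Cox8b: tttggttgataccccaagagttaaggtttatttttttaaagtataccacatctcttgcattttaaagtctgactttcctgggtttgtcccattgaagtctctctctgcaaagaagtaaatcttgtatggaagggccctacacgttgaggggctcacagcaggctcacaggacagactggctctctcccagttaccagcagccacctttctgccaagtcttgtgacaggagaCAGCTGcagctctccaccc
Cox7a1: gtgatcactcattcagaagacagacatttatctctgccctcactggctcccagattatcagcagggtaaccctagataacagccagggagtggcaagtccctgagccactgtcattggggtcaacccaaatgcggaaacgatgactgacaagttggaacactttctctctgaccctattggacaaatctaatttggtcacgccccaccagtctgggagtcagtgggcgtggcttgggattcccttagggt
Cox6a1: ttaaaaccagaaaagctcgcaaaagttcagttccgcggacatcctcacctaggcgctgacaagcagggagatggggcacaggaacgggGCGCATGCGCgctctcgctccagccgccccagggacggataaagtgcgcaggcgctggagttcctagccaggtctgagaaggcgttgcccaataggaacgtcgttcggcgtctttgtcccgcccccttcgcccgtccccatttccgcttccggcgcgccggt
Ndufs8: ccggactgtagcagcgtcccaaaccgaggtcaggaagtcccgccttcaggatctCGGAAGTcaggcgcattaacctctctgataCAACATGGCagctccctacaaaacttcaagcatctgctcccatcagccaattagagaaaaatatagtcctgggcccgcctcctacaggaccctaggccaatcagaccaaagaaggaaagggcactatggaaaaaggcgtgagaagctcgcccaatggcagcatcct

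The Cox8b window holds an E-box, CAGCTG, the letters bound by myogenic factors, from 19 to 14 bases before the start, and the Cox7a1 window holds none of the 5 motifs searched. The Cox6a1 window holds 2 overlapping cores of NRF1, a regulator of nuclear respiratory genes (GCGCATGCG on either strand), 162 to 153 bases before the start. The Ndufs8 window holds a core of GABPA (ACTTCCG) 196 to 190 bases and a core of YY1 (GCCATNTTG) 166 to 158 bases before the start, both on the opposite strand. Of 85 distinct nuclear symbols of C2C12, 69 matched a gene in the promoter table, with 74 windows. On both strands, the NRF1 core stood in 6 of the 74 windows (8.11%) and in 1.45% of all 32851 windows of the same length. The GABPA core stood in 8 (10.8%, against 4.92%), the YY1 core in 3 (4.05%, against 1.33%), the ESRRA letters AAGGTCA in 5 (6.76%, against 4.08%) and the E-box in 6 (8.11%, against 13%). These are matches of letters, described without a test, and they show no binding.

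Other genes that build or serve the chain were read from lists. In C2C12, assembly factors and electron carriers had more members lower than higher at day 1 and more higher than lower at day 6. Of 53 assembly factors, proteins that put the complexes together without staying in them, 50 were tested: 21 were lower and 4 higher at day 1, and 25 higher and 5 lower at day 6 against day 0 (24.4% and 25.9%, and 33.1% and 32.5% of all genes). Ndufaf4, an assembly factor of complex I, rose from 17.1 ± 2.07 CPM at day 0 to 38.9 ± 2.09 CPM at day 6 (log2 1.18 ± 0.09, adjusted p = 4.4e-10), and Coa3, of complex IV, from 19.7 ± 1.88 CPM at day 0 to 41.5 ± 4.53 CPM at day 6 (log2 1.07 ± 0.10, adjusted p = 6.5e-09). Lyrm7, an assembly factor of complex III, fell at day 1 from 2.85 ± 0.813 CPM at day 0 to 0.464 ± 0.162 CPM at day 1 (log2 -2.60 ± 0.35, adjusted p = 2.9e-06). Of 17 electron carrier genes, 7 were lower and 2 higher at day 1 and 9 higher and 3 lower at day 6. Cycs, cytochrome c, rose from 72.9 ± 5.82 CPM at day 0 to 188 ± 14.2 CPM at day 6 (log2 1.37 ± 0.07, adjusted p = 4.2e-13). Coq8a, a kinase-like protein of ubiquinone synthesis, rose from 2.16 ± 0.155 CPM at day 0 to 15.2 ± 2.33 CPM at day 6 (log2 2.81 ± 0.21, adjusted p = 1.9e-10). Of 34 genes of mitochondrial transcription, RNA processing and DNA maintenance, 33 were tested, with 10 higher and 8 lower at day 1 and 16 higher and 5 lower at day 6. Pde12, which trims mitochondrial poly(A) tails, rose from 12.5 ± 0.477 CPM at day 0 to 38.3 ± 2.23 CPM at day 6 (log2 1.62 ± 0.08, adjusted p = 3.2e-13), and Primpol, a primase-polymerase, fell from 30.4 ± 2.11 CPM at day 0 to 8.09 ± 0.823 CPM at day 6 (log2 -1.91 ± 0.13, adjusted p = 5e-11). Trmt10c, a subunit of the enzyme that cuts the polycistronic RNA, rose from 15.1 ± 1.48 CPM at day 0 to 33.9 ± 1.11 CPM at day 6 (log2 1.16 ± 0.08, adjusted p = 3.2e-11).

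In LHCN-M2, 23 of 52 assembly factors were lower and 4 higher at day 1, and 10 were lower and 10 higher at day 12 (23.5% and 23.4%, and 27.5% and 27.1% of all genes). Of 34 genes of mitochondrial transcription and RNA processing, 21 were lower and 3 higher at day 1, and 14 lower and 1 higher at day 12, while 9 of 13 mitochondrial genes were higher. Without replicate 2 of day 0, 17 assembly factors were lower and 8 higher at day 1, and 6 lower and 17 higher at day 12, while of the 34 genes 20 were lower and 3 higher at day 1, and 14 lower and 2 higher at day 12. The balance of assembly factors at day 12 thus turned with that library, and the counts of the transcription and processing list hardly moved. MGME1, a nuclease of mitochondrial DNA maintenance, fell from 54.5 ± 3.77 CPM at day 0 to 27.2 ± 2.03 CPM at day 12 (log2 -1.0001 ± 0.09, adjusted p = 1.4e-07). TOP1MT, the mitochondrial topoisomerase, fell from 33.0 ± 1.43 CPM at day 1 to 13.9 ± 2.87 CPM at day 12 (log2 -1.25 ± 0.17, adjusted p = 2.9e-05). Of 17 electron carrier genes, 6 were higher and 6 lower at day 12 against day 0, and 7 were higher against day 1. Without replicate 2 of day 0 these counts were 7 and 5, and against day 1 8 were higher and 3 lower. COQ8A rose as its mouse form did, from 6.95 ± 1.24 CPM at day 0 to 39.1 ± 1.57 CPM at day 12 (log2 2.49 ± 0.12, adjusted p = 2.3e-10), and CYCS rose from 79.6 ± 3.64 CPM at day 1 to 127 ± 5.63 CPM at day 12 (log2 0.68 ± 0.09, adjusted p = 2.4e-05). COX17, the copper chaperone of complex IV, rose from 15.3 ± 2.40 CPM at day 1 to 33.4 ± 2.42 CPM at day 12 (log2 1.13 ± 0.19, adjusted p = 0.00021). Of 24 mitochondrial ribosomal and transfer RNA genes only 3 had enough counts to test in each line, so no account of the transfer RNAs is given.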

How the data were processed

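The deposited files hold whole-number read counts per gene, 1 table for each line. Per the submitters' processing notes, featureCounts 2.0.6, HISAT2 2.2.1, fastp and StringTie 2.2.3 were among the tools, and the builds named are mm10, GRCh38 and hg38. How the counting treated strand, and reads that match several places, is not given in the sources used here. Per the labels' protocols, mRNA was captured on poly-T beads and primed with random hexamers. The library totals, 32795699 to 48546621 counts, were used as deposited.

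Members were found by symbol, and rows of a pseudogene biotype and COX6A2 were dropped. The members and the gene lists were chosen with earlier results of these data known. Each line's 12 libraries were fitted together with edgeR 4.0.16 (R 4.3.3), with TMM scaling, edgeR's own filter on low counts, no replicate term and the quasi-likelihood test. Benjamini-Hochberg adjustment ran over all 17065 (C2C12) or 18214 (LHCN-M2) genes tested, at a threshold of 0.05. The lines were compared through a line-by-day term over 10952 shared symbols. CPM values were computed here from the counts and the TMM-scaled totals, and RPKM values from these and gene length. The scripts were tested on simulated data, on the last day against day 0. Of 50 genes changed 1.2-fold, the fit called 5 in C2C12 and 0 in LHCN-M2. Of 50 changed 1.5-fold it called 23 and 17, and of 50 changed 2-fold 33 and 35. A gene that was not called may thus still have changed. The changed genes were drawn at random from all genes tested, and 16865 of 17065 (C2C12) and 18014 of 18214 (LHCN-M2) stayed unchanged. Far more genes were called in the data, so these rates need not hold for the genes described here.

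Genes were named by rule: all mitochondrial members, complex II and the paralog or tissue forms. To these were added, per comparison and complex, up to 2 higher and 2 lower members with the largest change among called members whose groups did not overlap, then up to 5 largest differences between the lines, and members called in opposite directions at the last day. Some members are counted but not reported by name here.

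No pair of replicates fell within sampling noise (chi-square per degree of freedom 6.52 to 171). DESeq2 1.42.0, totals without TMM, scaling without mitochondrial genes, other filters, a replicate block, only the libraries compared and leaving out libraries were tried as alternatives. Their effect is given at the end.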

Additional observations from a re-analysis of the deposited data

Results flagged for a closer look

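A replicate was marked where its gap to the nearest other replicate of its group was large for the range of the 4 (Dixon's test at 95%). Chance marks about 1 in 20 groups. Of 18 group totals tested, 5 were marked, and of 323 groups of single genes, 37.

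Among the totals, the summed nuclear members stood apart at 1.08% of counts in C2C12 day 0 replicate 1, at 1.14% in C2C12 day 6 replicate 2, at 0.841% in LHCN-M2 day 0 replicate 2 and at 0.664% in LHCN-M2 day 12 replicate 1. The ratio of mitochondrial to nuclear sums stood apart at 2.09 in C2C12 day 6 replicate 4.

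Most marked genes, 19 of 54, were in the LHCN-M2 day 0 group, and the library was replicate 2 each time. Its levels were 1047 CPM for MT-ND5, 1432 CPM for MT-ATP6, 859 CPM for ATP5F1B, 395 CPM for COX4I1, 184 CPM for NDUFA4, 218 CPM for ATP5PB, 101.5 CPM for NDUFS1, 253 CPM for UQCRC1, 201 CPM for UQCRH, 170.4 CPM for COX7A2, 138 CPM for COX6B1, 119.8 CPM for UQCRQ, 139 CPM for NDUFB10, 96.8 CPM for ATP5MD, 85.2 CPM for SDHB, 132 CPM for NDUFS6, 143 CPM for NDUFS8, 131 CPM for NDUFB7 and 85.5 CPM for ATP5MC1. At day 1 of LHCN-M2, 1 of 54 genes was marked, ATP5S in replicate 3 at 9.54 CPM. At day 12, 4 of 54 were marked: UQCRC2 in replicate 3 at 159 CPM, and COX7A2L at 111 CPM, COX6B1 at 93.8 CPM and UQCRQ at 87.9 CPM in replicate 1.

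In C2C12, 2 of 53 genes were marked at day 0, both in replicate 1: Ndufa4 at 172.5 CPM and Atp5g1 at 87.0 CPM. At day 1, 3 of 54 were marked: Cox4i1 in replicate 3 at 236 CPM, and Cox6b1 at 110.1 CPM and Cox8a at 133 CPM in replicate 1. At day 6, 8 of 54 were marked. Replicate 4 held mt-Nd5 at 2467 CPM and mt-Co2 at 58.4 CPM, and replicate 1 held mt-Nd6 at 409 CPM. Replicate 2 held Atp5b at 2108 CPM, Cox4i1 at 311 CPM, Atp5g2 at 301 CPM, Cox7a2l at 131 CPM and Ndufa4l2 at 0.424 CPM.

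The named genes whose change differed between the lines by the line-by-day term are given as the log2 change of LHCN-M2 minus that of C2C12. For day 1 against day 0 the differences were 5.30 for NDUFA4L2, -1.52 for NDUFB2, -0.85 for MT-CO3, 0.79 for NDUFA13 and 0.73 for COX7C. For the last day against day 0 they were positive for NDUFA4L2 (4.80), MT-ND4L (1.15), MT-ATP6 (0.91), MT-ND4 (0.74) and MT-CO1 (0.65). They were negative for NDUFB7 (-1.37), NDUFA12 (-1.24), NDUFV2 (-1.13), NDUFS8 (-0.96), ATP5MC1 (-0.94), NDUFS6 (-0.87), NDUFB10 (-0.82), ATP5MC3 (-0.73), UQCRH (-0.64), ATP5F1B (-0.45), ATP5PD (-0.44) and ATP5PB (-0.43). For the last day against day 1 they were -1.85 for NDUFV2, -1.75 for NDUFA7, -1.57 for NDUFA12, -0.96 for UQCRQ and 0.97 for MT-CYB. The last days are day 6 in C2C12 and day 12 in LHCN-M2. Human NDUFV2, NDUFA7 and NDUFA13 hold 182, 118 and 558 counts in all, and each shares its place with another gene, NDUFV2-AS1, RPS28 and YJEFN3.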

How the results depend on the processing

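Of the values of counts and ratios under all alternatives, 514 stayed within 1.5 times the count, or within 1 SD of the ratio, 78 moved further and 2 ratios changed sign. Of those of single named genes, 4914 kept direction and side of the threshold, 145 gained the call, 250 lost it and 3 changed sign. The cause of these shifts was not tested. In C2C12, mitochondrial members lower at day 1 than at day 0 went from 2 to 1 with DESeq2 and to 1 with totals without TMM, and nuclear members lower at day 6 than at day 0 went from 7 to 12 with totals without TMM and to 12 with no filter on low counts. In LHCN-M2 at day 1 against day 0, nuclear members higher went from 2 to 4 with DESeq2, 5 with totals without TMM and 4 with at least 1 CPM in 4 libraries, and mitochondrial members higher from 1 to 2 with totals without TMM. With only the 8 libraries compared, day 12 against day 0 had 11 nuclear members lower in place of 17, and day 12 against day 1 had 31 higher in place of 14. Nuclear members lower at day 12 than at day 1, 0 with edgeR, numbered 2 with DESeq2, 2 with totals without TMM, 1 with scaling without mitochondrial genes, 2 with the filter of 1 CPM and 6 with only the 8 libraries compared. Between the lines, mitochondrial members with a higher first-day difference in LHCN-M2 went from 1 to 2 with TMM over all 24 libraries and to 2 with the filter of 1 CPM, and those higher from day 1 to the last day from 5 to 3 with TMM over all 24 libraries.

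The replicate numbers are shared across days, but same-numbered libraries did not deviate together: 0 of 12 pairs in either line correlated over 0.1, and 3 of 24 comparisons in C2C12 and 9 of 24 in LHCN-M2 had their best match in their own number. With a replicate block, nuclear members lower at LHCN-M2 day 12 than day 1 went from 0 to 1 and mitochondrial members with a higher first-day difference from 1 to 2. Among named genes the block added 4 calls, removed 9 and left 341 as they were.

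The other settings named here as added were chosen after seeing the data. Leaving out LHCN-M2 day 0 replicate 2 and day 12 replicate 1 together gave, at day 1 against day 0, 13 nuclear members higher, 4 mitochondrial higher and 2 mitochondrial lower, and at day 12 against day 1, 28 nuclear higher and 14 lower. With both out, UQCRQ at day 12 against day 0 turned to a log2 change of 0.20, and MT-ND5 at day 1 against day 0 from 0.04 to -0.13. UQCRQ, at -0.03 with all libraries, ranged from -0.14 to 0.26 with 1 library left out (0.26 without day 0 replicate 2). Pairing members by older mouse names, also added, raised nuclear members with a lower first-day difference from 4 to 7. The difference in the log2 ratio of mitochondrial to nuclear sums at C2C12 day 1 against day 0, 0.32, was 0.44 with the mean of log2 CPM per gene, 0.56 without the most abundant mitochondrial gene and 0.64 with only genes that have no near-identical mouse copy, an added setting. At C2C12 day 6 against day 0, -0.19, it was -0.046, 0.10 and 0.19 in the same order. With only those genes it was 0.78 in place of 0.46 at LHCN-M2 day 12 against day 0 and 0.41 in place of 0.08 at day 12 against day 1.

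Leaving out 1 library of the days compared at a time gave these ranges. In C2C12, day 1 against day 0 had 2 to 6 nuclear members higher (6 without day 0 replicate 1) and 0 to 2 mitochondrial members lower. Nuclear members lower numbered 40 to 49, in place of 52 (40 without day 0 replicate 1). Day 6 against day 0 had 3 to 11 nuclear members lower (3 without day 6 replicate 3, 11 without day 6 replicate 2), and day 6 against day 1 had 2 to 5 (2 without day 6 replicate 1). Nuclear members higher numbered 38 to 52 at day 6 against day 0 and 63 to 68 at day 6 against day 1. In LHCN-M2, day 1 against day 0 had 2 to 12 nuclear members higher, 18 to 35 lower (18 without day 1 replicate 3), 1 to 4 mitochondrial members higher and 0 to 1 lower. Day 12 against day 0 had 7 to 19 nuclear members higher and 11 to 26 lower (26 without day 0 replicate 3, 11 without day 12 replicate 2 or replicate 3), and day 12 against day 1 had 7 to 12 higher (7 without day 12 replicate 1) and 0 to 1 lower. Day 0 replicate 2, outside that comparison but part of its fit, moved it to 31 higher and 5 lower when left out. The 12 and 19 higher nuclear members and the 4 and 1 mitochondrial members are those without day 0 replicate 2. Between the lines, also leaving out each replicate number of a line, the first-day difference was higher in LHCN-M2 for 10 to 30 nuclear members (30 without LHCN-M2 day 0 replicate 2, 29 without all its replicates 2) and lower for 2 to 5, and higher for 1 to 2 mitochondrial members and lower for 2 to 5. The last day against day 0 gave 7 to 18 nuclear members higher (16 and 18 with the same left out) and 0 to 1 mitochondrial members lower, and the last day against day 1 gave 3 to 8 mitochondrial members higher.

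Genes with few counts, such as human NDUFV2 and NDUFA7, are limited by depth, and the 4 libraries of a group set the error of the rest.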
